A study of Schmidtea mediterranea with 40 samples.

Results

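Contig dd_Smed_v6_2786_0_1 is a planarian transcript whose closest human match in the deposited annotation is lipase A (LIPA), the lysosomal acid lipase. It is 1 of the 28742 contigs in the read count table, and no other contig of that table carries the same cluster number. The contig was chosen by its read counts, which were low in *activin-2* RNAi libraries against control RNAi libraries, so the differences between the RNAi groups are given below as a description, without a test. In animals such as mouse and human, lysosomal acid lipase is the enzyme that splits cholesteryl esters and triglycerides once lipoproteins have been taken up by endocytosis and delivered to the lysosome. The freed cholesterol and fatty acids leave the lysosome and are used in membranes, burned or stored again in lipid droplets. The planarian intestine digests much of its food inside phagocytic cells, and intestinal cells are also a site of lipid storage. The annotation gives this contig a lipase domain of the alpha/beta hydrolase fold but no cell type.

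Asexual *Schmidtea mediterranea* of strain CIW4 received 4 feedings of double-stranded RNA within 14 days, and amputation followed 7 days after the last one. They ate either *activin-2* dsRNA or control dsRNA against *unc-22*, a gene of *Caenorhabditis elegans*. Poly(A) RNA of post-pharyngeal fragments, with 5 wounds per replicate, was sequenced in 40 libraries. For each RNAi there were 3 libraries labelled 0, 6, 24 and 48 hours post amputation (hpa) each, and 4 libraries labelled 18 hpa from anterior-facing and 4 from posterior-facing wounds. The labels give posterior-facing wounds at 6, 24 and 48 hpa and no wound face at 0 hpa. No label says that the replicates are separate sets of animals, so each p-value measures only the spread between these samples. Knockdown by RNAi acts in the whole animal, and a bulk library cannot tell fewer cells of a type from less RNA per cell.

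The libraries held between 2524235 and 13381025 counted reads, with a median of 10533396, and between 101 and 1881 of these fell on the lipase contig. Levels are in RPM, which is a contig's share of all counted reads in its library, scaled to 1000000. The shallowest library was *activin-2* RNAi replicate 3 at labelled 48 hpa, which also held the fewest reads of the contig. The times are used as labelled, although the mean z score of 127 wound-induced contigs was lowest in the libraries labelled 24 hpa (-0.88 in *activin-2* RNAi and -1.26 in control RNAi). In the libraries labelled 48 hpa, this score was 0.36 in *activin-2* RNAi and 0.37 in control RNAi. At labelled 0 hpa it was 0.078 in *activin-2* RNAi and 0.15 in control RNAi, above the -0.37 and -0.18 at labelled 6 hpa. Each step between labelled times given below, and each RNAi comparison at a labelled time, therefore rests on the labels.

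The lipase contig was low in all 20 *activin-2* RNAi libraries and high in all 20 control RNAi libraries. The highest *activin-2* RNAi library had 40.01 RPM and the lowest control RNAi library had 83.5 RPM, which is 2.09 times as much. The mean in *activin-2* RNAi was between 14.2% and 24.4% of the control RNAi mean in the 6 comparisons of the same labelled time and wound face. In the order of the log2 fold change, the contig lay between the 2nd and the 86th lowest place of the contigs tested.

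At labelled 0 hpa, the contig had 32.5, 20.6 and 26.6 RPM in *activin-2* RNAi libraries, against 117, 114 and 101 RPM in control RNAi libraries. The groups did not overlap, and the mean in *activin-2* RNAi was 24.0% of that in control RNAi. The log2 fold change was -2.01 ± 0.15 (SE, n = 3 per group), with 25 of 16203 contigs lower. For orientation, 3.13% of these contigs were called lower in *activin-2* RNAi, where a call is an adjusted p under 0.05 in the edgeR quasi-likelihood test over all contigs tested. A call is a different measure from groups that do not overlap. The share of all contigs whose groups did not overlap was not counted, here or below.

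At labelled 6 hpa, the values were 24.9, 22.2 and 12.8 RPM in *activin-2* RNAi, against 83.5, 109 and 93.9 RPM in control RNAi. The groups did not overlap. The log2 fold change of the contig was -2.19 ± 0.22 (SE, n = 3 per group), with 12 of 16536 contigs lower and 1.26% of contigs called lower.

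At anterior-facing wounds labelled 18 hpa, libraries labelled *activin-2* RNAi had 18.9, 32.1, 15.4 and 13.6 RPM, against 106, 161, 189 and 105 RPM in control RNAi. Replicates 2 and 3 of control RNAi stood above the others, and replicate 2 was the highest of the *activin-2* RNAi libraries. The mean in *activin-2* RNAi was 14.2% of that in control RNAi, the lowest share of the 6 comparisons. The log2 fold change was -2.82 ± 0.26 (SE, n = 4 per group), and 1 of 16019 contigs was lower, in a comparison with 1.84% of contigs called lower.

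At posterior-facing wounds labelled 18 hpa, libraries labelled *activin-2* RNAi had 15.3, 19.7, 21.8 and 11.2 RPM, against 121, 108, 104 and 98.0 RPM in control RNAi. The mean in *activin-2* RNAi was 15.8% of that in control RNAi. The gap between the groups was the widest of the 6 comparisons, with the lowest control RNAi library at 4.49 times the highest *activin-2* RNAi library. Here, *activin-2* RNAi differed from control RNAi by a log2 fold change of -2.68 ± 0.13 (SE, n = 4 per group), and again 1 contig, of 16346, was lower. In this comparison 5.78% of contigs were called lower.

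At labelled 24 hpa, the contig had 31.1, 20.03 and 24.3 RPM in *activin-2* RNAi, against 119, 90.9 and 99.5 RPM in control RNAi. On the log2 scale the difference was -2.16 ± 0.15 (SE, n = 3 per group). Although this change was close to those at 0 and 6 hpa, 85 of 16200 contigs were lower, more than in the other comparisons, and 7.96% of contigs were called lower.

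At labelled 48 hpa, the values were 19.8, 18.3 and 40.01 RPM in *activin-2* RNAi, against 137, 140 and 124 RPM in control RNAi. The highest *activin-2* RNAi value of the whole series was that of the shallow library, replicate 3, where it rests on 101 reads. The change was -2.54 on the log2 scale with an SE of 0.23 (n = 3 per group), with 13 of 15725 contigs lower and 1.84% of contigs called lower. Without replicate 3 of *activin-2* RNAi the fold change was -2.86.

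**Figure D1:**
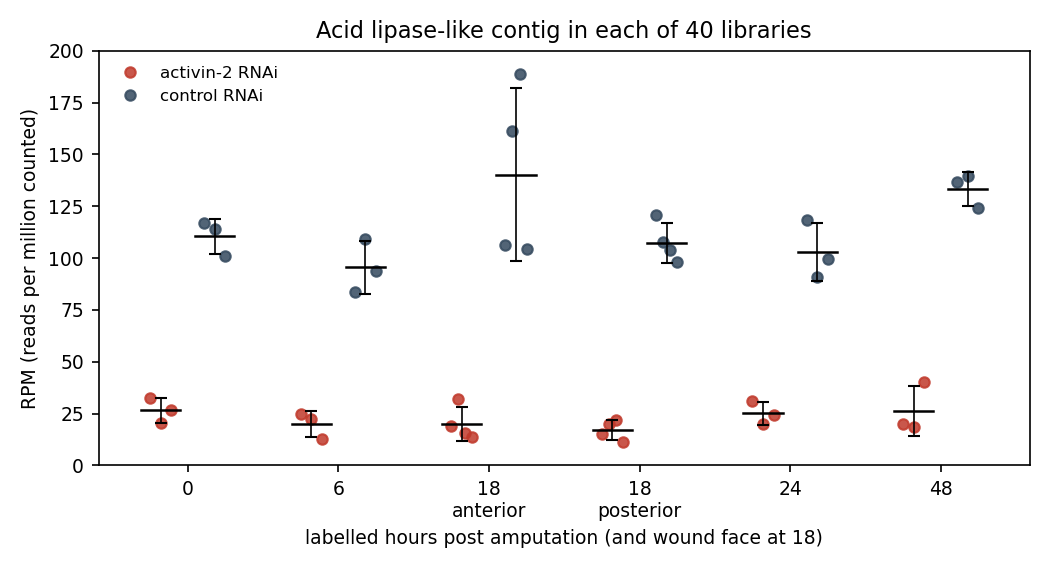
RPM of the lipase contig (y axis, linear from 0) in each of 40 libraries, by labelled time and wound face (x axis), with *activin-2* RNAi in red to the left of control RNAi in dark grey; black lines are group means and bars are SD. All *activin-2* RNAi points lie at or below 40.01 RPM and all control RNAi points at or above 83.5 RPM.

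Among the 14971 contigs tested in all 6 comparisons, 29 (0.194%) were called lower in *activin-2* RNAi each time and 7 (0.0468%) were called higher each time. By the median of its 6 log2 fold changes, -2.37, the lipase contig was 8th from the lowest. The 2 contigs just ahead of it were dd_Smed_v6_135_0_1, which has no human match, with a median of -2.74, and dd_Smed_v6_10_1_1, matching the C-type lectin COLEC10, at -2.67. On the other side followed dd_Smed_v6_159_0_1, matching peptidase inhibitor 16 (PI16), at -1.94, and a second LIPA match, dd_Smed_v6_122_1_1, at -1.71. The changes of dd_Smed_v6_10_1_1 ran from -4.52 at labelled 48 hpa to -1.38 at 18 hpa anterior-facing wounds, whereas those of the lipase contig stayed between -2.82 and -2.01.

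The targeted gene was not read evenly over the times. *activin-2*, which encodes a TGF-β family ligand, was counted on contig dd_Smed_v6_3324_0_1. Over the labelled times 0, 6, 24 and 48 hpa, the 12 libraries of *activin-2* RNAi had between 2.25 and 5.55 RPM of it, against 27.1 to 54.0 RPM over all control RNAi libraries. The log2 fold changes at these times were -3.45, -3.85, -3.91 and -3.15 (edgeR, highest adjusted p = 5.55e-06, n = 3 per group).

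At 18 hpa, reads of *activin-2* were not low in every library labelled *activin-2* RNAi. At anterior-facing wounds they had 29.5, 85.8, 25.8 and 47.8 RPM, against 28.7, 28.9, 31.9 and 27.1 RPM in control RNAi (log2 fold change 0.69, edgeR adjusted p = 0.3006). At posterior-facing wounds they had 70.1, 16.6, 6.02 and 3.63 RPM, against 33.4, 37.7, 36.9 and 44.3 RPM in control RNAi (log2 fold change -0.79, edgeR adjusted p = 0.4071). The last difference was called in 1 of 14 alternatives. In 4 of these 8 libraries the *activin-2* reads were at or above the lowest control RNAi library of the same wound face, so that the reads of the targeted gene do not bear out the label there. The lipase contig was nevertheless between 11.2 and 32.1 RPM in all 8, against at least 98.0 RPM in control RNAi at 18 hpa. Replicate 1 at posterior-facing wounds had 70.1 RPM of *activin-2* and 15.3 RPM of the lipase, and replicate 4 had 3.63 RPM of *activin-2* and 11.2 RPM of the lipase. Whether all *activin-2* reads at 18 hpa came from the animals' own transcript was not tested.

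**Figure D2:**
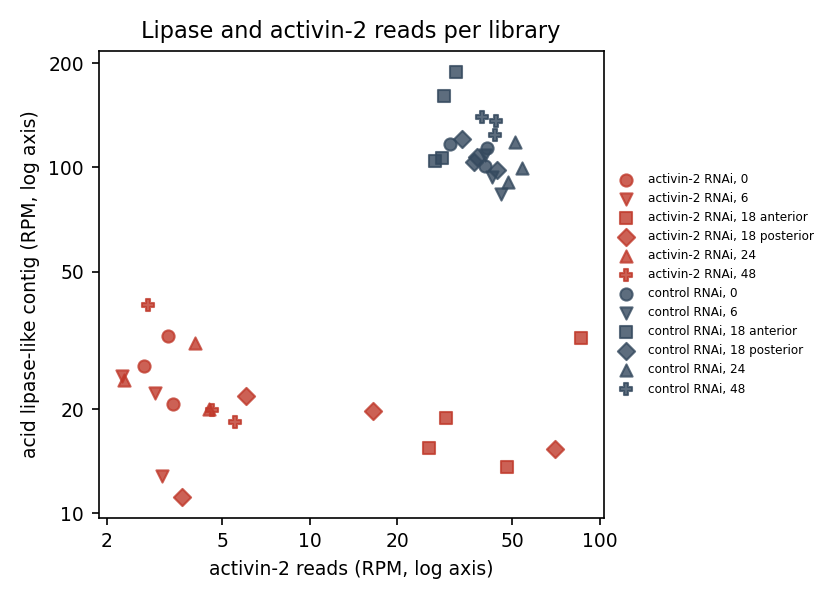
RPM of the lipase contig (y axis, log scale) against RPM of *activin-2* (x axis, log scale), 1 point per library, with *activin-2* RNAi in red, control RNAi in dark grey and a symbol for each labelled time and wound face. The *activin-2* RNAi libraries of 18 hpa spread from 3.63 to 85.8 RPM of *activin-2* while their lipase values stay between 11.2 and 32.1 RPM.

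Wound face and labelled time were not used to pick the contig, and both were tested. In libraries labelled *activin-2* RNAi, the lipase had 17.0 ± 4.74 RPM at posterior-facing and 19.98 ± 8.36 RPM at anterior-facing wounds (SD, n = 4 each). In control RNAi, it had 107 ± 9.58 RPM at posterior-facing and 140 ± 41.8 RPM at anterior-facing wounds (SD, n = 4 each). Both wound faces overlapped in each RNAi, and neither difference passed the test.

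The log2 fold change of posterior-facing over anterior-facing wounds was -0.20 ± 0.25 (SE) in *activin-2* RNAi, with a 95% interval of -0.73 to 0.33 (edgeR adjusted p = 0.6116, two-sided exact permutation p = 0.6571). In control RNAi it was -0.34 ± 0.16 (SE), with an interval of -0.69 to 0.02 (edgeR adjusted p = 0.1938, two-sided exact permutation p = 0.2571). Between wound faces, 18.4% of contigs were called in *activin-2* RNAi and 15.4% in control RNAi. Without replicate 2 of anterior-facing *activin-2* RNAi the sign turned, to 0.16, and without replicate 3 of anterior-facing control RNAi the change was -0.15. The difference between both changes, the interaction of RNAi and wound face, was 0.15 ± 0.34 on the log2 scale (95% interval -0.57 to 0.86, edgeR adjusted p = 0.9997, 0.0941% of contigs called). Its sign turned when replicate 4 of anterior-facing or replicate 3 of posterior-facing *activin-2* RNAi was left out (-0.03 and -0.01), and without replicate 3 of anterior-facing control RNAi (-0.04).

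Over labelled time, the control RNAi level of the lipase was 111 ± 8.45 at 0 hpa, 95.5 ± 12.8 at 6 hpa, 107 ± 9.58 at 18 hpa, 103 ± 14.2 at 24 hpa and 133 ± 8.21 RPM at 48 hpa, at posterior-facing wounds from 6 hpa on (SD, n = 3 each and 4 at 18 hpa). All libraries labelled 48 hpa lay above all control RNAi libraries labelled 0, 6, 18 and 24 hpa of this series of wounds. The test over the 5 labelled times passed (edgeR quasi-likelihood F test, adjusted p = 0.001309, with 60.7% of contigs called). It missed the threshold without the libraries labelled 48 hpa (adjusted p = 0.1359) or when all 12 groups shared 1 fit (adjusted p = 0.1931).

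The change of labelled 48 over 0 hpa in control RNAi was 0.40 ± 0.11 on the log2 scale (SE, edgeR adjusted p = 0.02604, with 12% of contigs called). This call was lost with scaling by library size only (0.27, adjusted p = 0.07949), in 1 fit of all 12 groups (adjusted p = 0.3138), without replicate 3 at 0 hpa (adjusted p = 0.1515) and without replicate 1 or 2 at 48 hpa (adjusted p = 0.07215 and 0.09701). Labelled 48 over 24 hpa gave 0.33 ± 0.11 (SE, edgeR adjusted p = 0.05679, with 12.7% of contigs called). It passed with DESeq2 (adjusted p = 0.04385), with scaling by library size only (0.02189), without a filter (0.04485), and when replicate 1 at 24 hpa, replicate 3 at 0 hpa or replicate 2 at 6 hpa was left out (0.01218, 0.04045 and 0.04891). The other 5 steps tested in control RNAi lay between -0.22 and 0.19, and none was called. Over all contigs, 3.43% were called for 6 over 0 hpa, 27.4% for 18 over 0 hpa, 29.7% for 24 over 0 hpa, 37.1% for 18 over 6 hpa and 47.8% for 24 over 18 hpa.

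In *activin-2* RNAi, the lipase had 26.6 ± 5.92 at 0 hpa, 19.97 ± 6.37 at 6 hpa, 17.0 ± 4.74 at 18 hpa, 25.1 ± 5.61 at 24 hpa and 26.1 ± 12.1 RPM at 48 hpa (SD, n = 3 each and 4 at 18 hpa). These values overlapped widely, and the test over time did not pass (edgeR adjusted p = 0.1706, with 47.4% of contigs called). Labelled 18 over 0 hpa was the largest step, at -0.71 ± 0.27 on the log2 scale (SE, 95% interval -1.29 to -0.13, edgeR adjusted p = 0.05917), beside 30.1% of contigs called. It passed without a filter (adjusted p = 0.02113) and in 1 fit of all 12 groups (0.03529). Leaving out replicate 2 at 0 hpa, 3 at 6 hpa, 3 at 18 hpa, or 2 or 3 at 48 hpa also gave a call (0.04151, 0.02901, 0.04274, 0.04658 and 0.03228). None of the other 6 steps was called, with log2 fold changes between -0.39 and 0.63. For these, 2.09% of contigs were called for 6 over 0 hpa, 11.7% for 24 over 0 hpa, 3.13% for 48 over 0 hpa, 42.5% for 18 over 6 hpa, 28.9% for 24 over 18 hpa and 4.09% for 48 over 24 hpa.

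The RNAi effect itself did not pass the test of a difference between the labelled times (edgeR interaction of RNAi and time, adjusted p = 0.3968, with 5.53% of contigs called). A p that misses the threshold does not show that the effect was the same at each time.

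From highest to lowest, the 12 group means ran over anterior-facing 18 hpa, 48, 0, posterior-facing 18, 24 and 6 hpa in control RNAi, and then over 0, 48, 24, anterior-facing 18, 6 and posterior-facing 18 hpa in *activin-2* RNAi. Neighbours in this order overlapped, except that 48 hpa lay above 0 hpa in control RNAi and the lowest control RNAi group lay above the highest *activin-2* RNAi group. The highest mean of a group was 1.56 times the lowest in *activin-2* RNAi and 1.47 times the lowest in control RNAi.

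The coefficient of variation of the contig was between 22.3% and 46.4% in the *activin-2* RNAi groups, where counting error gives 5.92% to 7.62%. In control RNAi it was between 6.16% and 29.8%, where counting error gives 2.56% to 3.11%. The widest control RNAi group was that of anterior-facing wounds, and the widest *activin-2* RNAi group was 48 hpa, which holds the shallow library.

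The contig whose level followed that of the lipase most closely within groups was dd_Smed_v6_1706_0_1, an intestine-annotated contig matching PSAPL1, a relative of the prosaposin that gives rise to activators of lysosomal lipid breakdown. It was picked for that likeness, so its values in the libraries that stood apart for the lipase are a description. At anterior-facing wounds in control RNAi, PSAPL1 had 219 and 220 RPM in replicates 2 and 3, against 145 and 142 RPM in replicates 1 and 4. In libraries labelled *activin-2* RNAi at the same wounds, it had 134 RPM in replicate 2 and 86.7 to 92.5 RPM in the others. In *activin-2* RNAi at labelled 48 hpa, PSAPL1 had 200 RPM in replicate 3, and 110 and 138 RPM in replicates 1 and 2. The contigs annotated as Gut summed to 82133 RPM in that replicate and to 75492 and 72794 RPM in the other 2. In libraries labelled *activin-2* RNAi at anterior-facing wounds, the Gut sum was 64467 RPM in replicate 2, which was highest for the lipase, and 64735 RPM in replicate 3, which was lower for it. In control RNAi at these wounds, the sums were 60829 and 60292 RPM in replicates 2 and 3, and 59122 and 54515 RPM in replicates 1 and 4. For the contigs annotated Gut (2), the sums at these wounds were 48435 and 48792 RPM in control RNAi replicates 2 and 3. They were 47525 and 45193 RPM in replicates 1 and 4. In libraries labelled *activin-2* RNAi there, the Gut (2) sum was 45433 RPM in replicate 2 and 43806 to 44422 RPM in the others. At labelled 48 hpa it was 44533 RPM in replicate 3 of *activin-2* RNAi, and 42213 and 41327 RPM in replicates 1 and 2. The part of intestinal content in the spread of the lipase was not tested.

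Over all 40 libraries, the contigs whose log2(RPM + 0.5) followed the lipase most closely were sought among the 11761 contigs with a mean of at least 5 RPM. The highest Pearson r was 0.92, for dd_Smed_v6_1083_0_1, which has no human match. Another was dd_Smed_v6_410_0_1, annotated Gut (2), with no human match (r = 0.89). Behind it were dd_Smed_v6_7884_0_1, matching the tryptophan-degrading enzyme KMO (r = 0.86), dd_Smed_v6_1731_0_1, matching the zinc transporter SLC39A14 (r = 0.86), and dd_Smed_v6_2814_0_1, matching a collagen VI chain, COL6A3 (r = 0.85). These 40 points fall into the 2 RNAi groups, so the correlation mostly restates which contigs were lower in *activin-2* RNAi.

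These contigs had log2 fold changes below 0 in each comparison, nearer to 0 than that of the lipase. For dd_Smed_v6_1083_0_1, the means lay between 9.20 and 12.8 RPM in *activin-2* RNAi and between 16.4 and 31.2 RPM in control RNAi, with log2 fold changes of -1.62 to -0.78.

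With each group's mean subtracted, which removes the difference between RNAi groups, the order changed. The highest r was then 0.83 for PSAPL1 (dd_Smed_v6_1706_0_1), followed by 0.81 for dd_Smed_v6_3177_0_1, matching the metalloprotease TLL2, and 0.78 for dd_Smed_v6_1083_0_1. Lower values of r were found for pyruvate carboxylase PC (dd_Smed_v6_2393_0_1, r = 0.77) and glycogen phosphorylase PYGM (dd_Smed_v6_1532_0_1, r = 0.77). The log2 fold changes of PSAPL1 in the RNAi comparisons lay between -1.12 and -0.69, given as a description without a test. The correlations are over libraries that share depth and tissue make-up, and they were the highest of many.

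**Figure D3:**
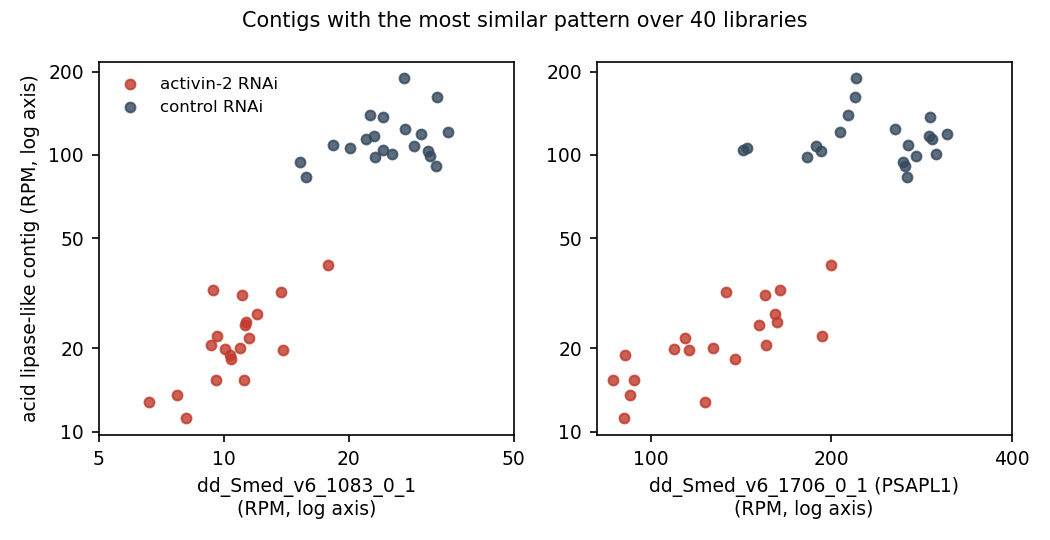
RPM of the lipase contig (y axis, log scale) against RPM of dd_Smed_v6_1083_0_1 (left) and of PSAPL1, dd_Smed_v6_1706_0_1 (right; x axes, log scale), 1 point for each of 40 libraries, with *activin-2* RNAi in red and control RNAi in dark grey. In both panels the RNAi groups form separate clouds, and the lipase separates them by more than either other contig.

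The deposited annotation holds 7 further contigs of the acid lipase family, which in human also includes the gastric lipase LIPF that is secreted into the stomach. None of them was lower in *activin-2* RNAi in all 6 comparisons. The contig annotated to the intestine, dd_Smed_v6_257_0_1, matching LIPF, was called higher in 4 of the comparisons.

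At labelled 0 hpa, dd_Smed_v6_257_0_1 had 684, 941 and 732 RPM in *activin-2* RNAi, against 456, 519 and 421 RPM in control RNAi (log2 fold change 0.79, edgeR adjusted p = 0.006679). It was also called higher at 6 hpa (0.75, adjusted p = 0.009982), at anterior-facing wounds at 18 hpa (0.76, adjusted p = 0.002621) and at posterior-facing wounds at 18 hpa (0.60, edgeR adjusted p = 9.691e-07). Over all contigs, 1.09%, 0.738%, 0.755% and 3.15% were called higher in these comparisons. At labelled 24 hpa it had 758, 698 and 824 RPM in *activin-2* RNAi, against 819, 932 and 898 RPM in control RNAi, and was called lower (-0.36, edgeR adjusted p = 0.01762), where 4.51% of contigs were called higher and 7.96% lower. That call was lost with scaling by library size only (adjusted p = 0.08576), without replicate 2 of *activin-2* RNAi (0.05603) and without replicate 2 of control RNAi (0.09812). At labelled 48 hpa the change was 0.49 and not called (edgeR adjusted p = 0.05631, with 0.496% of contigs called higher), although 6 of the alternatives called it, DESeq2 among them (adjusted p = 0.002568). Whether the change of this contig differed between the times was not tested.

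A second LIPF match, dd_Smed_v6_4693_0_1, was called higher at 0 hpa (log2 fold change 0.69, edgeR adjusted p = 0.007675) and at both wound faces at 18 hpa (0.45 and 0.51 at anterior-facing and posterior-facing wounds, adjusted p = 0.02045 and 0.003535). The call at anterior-facing wounds was lost without replicate 3 or 4 of *activin-2* RNAi or replicate 3 of control RNAi (adjusted p = 0.06586, 0.06916 and 0.05086). At 6, 24 and 48 hpa its changes were 0.38, -0.22 and 0.34, none called, although DESeq2 called the change at 6 hpa (adjusted p = 0.03072). Another LIPF match, dd_Smed_v6_1565_0_1, had changes between -0.28 and 0.36 and was called once, lower at 24 hpa (edgeR adjusted p = 0.04358). Scaling by library size only (adjusted p = 0.267) or 1 fit of all 12 groups (0.09) ended the call at 24 hpa. Leaving out any library of that comparison other than replicate 1 of control RNAi also ended it (0.05961 to 0.1542). At 6 hpa, DESeq2 called the change of this contig (0.36, adjusted p = 0.008227).

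**Figure D4:**
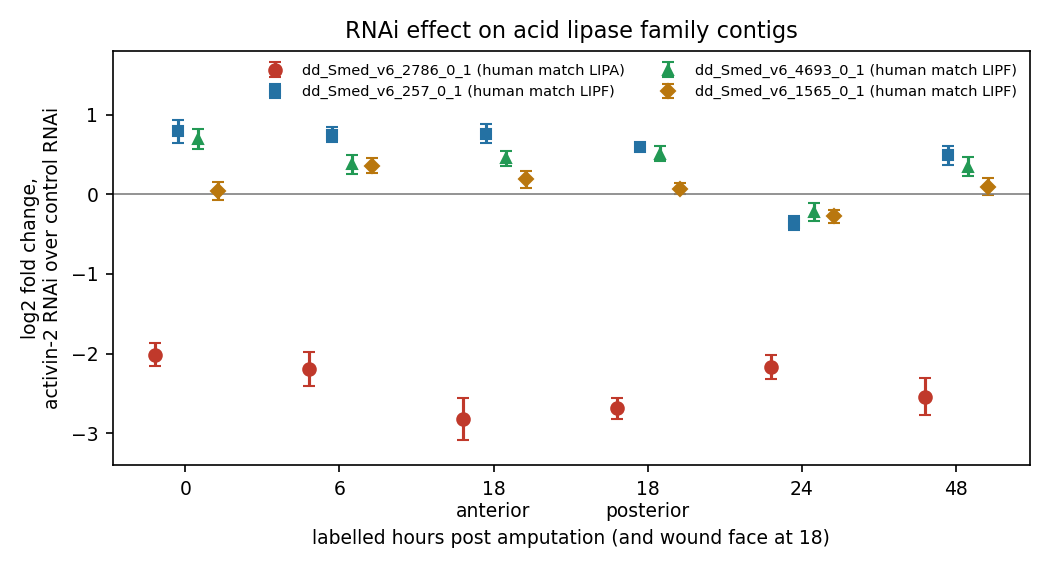
Log2 ratio of *activin-2* RNAi to control RNAi with its SE (y axis) by labelled time and wound face (x axis) for the lipase contig and 3 LIPF-matching contigs of its family. The lipase contig lies between -2.82 and -2.01, while the others lie between -0.36 and 0.79.

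The other LIPA match, dd_Smed_v6_122_1_1, varied far more between libraries than the lipase contig. At labelled 0 hpa it had 1.90, 0.754 and 2.10 RPM in *activin-2* RNAi, against 34.4, 1.85 and 141 RPM in control RNAi. Its control RNAi libraries thus spanned a ratio of 76.3, while dd_Smed_v6_2786_0_1 had 101 to 117 RPM in the same libraries. The groups overlapped, and the change was called lower at 0 hpa (log2 fold change -5.02 ± 0.94, edgeR adjusted p = 0.008411, n = 3 per group). It was not called at the other times, with log2 fold changes between -3.06 and 1.16. Some alternatives did call it lower, at 48 hpa without a filter (-3.08, adjusted p = 8.432e-07), with the replicate number as a block (0.002039) and without replicate 2 of control RNAi (0.03118), and at anterior-facing wounds at 18 hpa without replicate 2 of control RNAi (0.03211). Without replicate 3 of control RNAi at 0 hpa, the change was -3.54, and it was still called, as in every other alternative run (highest adjusted p 0.03857). Whether reads were divided between both LIPA matches during alignment was not tested.

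Of the remaining family members, dd_Smed_v6_7967_0_1, matching LIPF, passed the filter on low counts only at labelled 24 hpa and only through the control RNAi group, so no test is given. It had 0 reads in all *activin-2* RNAi libraries there, against 2.23, 1.29 and 1.27 RPM in control RNAi, 50 reads in all. Set against a floor of 3 counts over the *activin-2* RNAi group, it was at least 17.3-fold lower, a bound that covers counting error only. dd_Smed_v6_9731_0_1, matching LIPM, and dd_Smed_v6_97499_0_1, matching LIPF, stayed at or below 0.919 RPM in every library and were not tested.

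Lists of other genes of the lysosome and of lipid handling had medians near 0. Of 57 contigs matching lysosomal hydrolases and their activators, 45 or 46 were tested. By edgeR, 2 were called higher and 2 lower in *activin-2* RNAi at 0 hpa, 1 and 0 at 6 hpa, 1 and 2 at anterior-facing and 2 and 6 at posterior-facing wounds at 18 hpa, 0 and 11 at 24 hpa, and 0 and 0 at 48 hpa. The calls were 8.7%, 2.17%, 6.52%, 17.4%, 23.9% and 0% of those tested, where all contigs gave 4.22%, 2%, 2.6%, 8.93%, 12.5% and 2.33%. At 48 hpa, 6 had an unadjusted p under 0.05, DESeq2 called 2, and leaving out replicate 1, 2 or 3 of *activin-2* RNAi gave 1, 4 and 1 calls. At 6 hpa, 18 had an unadjusted p under 0.05, and 7 were called by DESeq2 or without replicate 3 of *activin-2* RNAi. The 4 calls at 0 hpa became 1 without replicate 1 of *activin-2* RNAi, and 2 without its replicate 2 or 3 or without replicate 1 or 3 of control RNAi. At 24 hpa, where 11 were called, the count was 2 without replicate 2 and 7 without replicate 1 of control RNAi, and 4 without replicate 2 of *activin-2* RNAi or with scaling by library size only. The median log2 fold change of the list was between -0.16 and 0.08, against at most 0.02 over all contigs.

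The 4 members of this list with the most reads were the protease cathepsin L (dd_Smed_v6_267_0_1), prosaposin (dd_Smed_v6_241_0_1 and dd_Smed_v6_390_0_1) and the protease cathepsin B (dd_Smed_v6_81_0_1). Their log2 fold changes lay between -0.14 and 0.32, and none was called. Other contigs matching cathepsin L and prosaposin were called lower. The cathepsin L match dd_Smed_v6_582_0_1 was called at anterior-facing and posterior-facing wounds at 18 hpa and at 24 hpa (-0.48, -0.45 and -0.29). Also called were dd_Smed_v6_175_0_1 at posterior-facing wounds at 18 hpa (-0.34) and dd_Smed_v6_2268_0_1 at 24 hpa (-0.50). The prosaposin match dd_Smed_v6_396_0_1 was called at 24 hpa (-0.42). Chosen after its values were seen, the contig matching GM2A, which presents gangliosides to a lysosomal hydrolase (dd_Smed_v6_214_1_1), was called higher at 0 and 6 hpa and at both wound faces at 18 hpa (1.00, 0.85, 0.76 and 0.75) and lower at 24 hpa (-0.43, edgeR adjusted p = 0.0139). The call at 24 hpa was lost with scaling by library size only (adjusted p = 0.06274), and without replicate 2 of *activin-2* RNAi (0.0566) or of control RNAi (0.07806). At 48 hpa the GM2A match was not called, although 5 of 12 alternatives gave a call.

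Of 33 contigs for lysosomal membrane proteins and the proton pump that acidifies lysosomes, 29 or 30 were tested. edgeR called 1 higher and 1 lower at 24 hpa and 0 in the other 5 comparisons, where between 0 and 9 had an unadjusted p under 0.05 and DESeq2 called between 0 and 2. At 24 hpa these calls were 6.9% of those tested, beside 12.5% of all contigs. That count of 2 became 0 without replicate 2 or 3 of *activin-2* RNAi or replicate 2 of control RNAi, 1 without replicate 1 and 6 without replicate 3 of control RNAi. Without replicate 3 of *activin-2* RNAi, 3 were called at 6 hpa, and without replicate 2, 1 was called at 48 hpa. The 4 with the most reads were proton pump subunits, ATP6V0A1, ATP6V1A, ATP6V1B2 and ATP6V0C, and their log2 fold changes lay between -0.27 and 0.21, none called.

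Of 31 contigs for lipid uptake and storage, 27 to 31 were tested. Those called higher and lower were 1 and 0 at 0 hpa, 1 and 0 at 6 hpa, 2 and 1 at anterior-facing and 6 and 1 at posterior-facing wounds at 18 hpa, 4 and 3 at 24 hpa, and 1 and 1 at 48 hpa. The calls were 3.57%, 3.23%, 10.3%, 24.1%, 25.9% and 6.9% of those tested in this order, where all contigs gave 4.22%, 2%, 2.6%, 8.93%, 12.5% and 2.33%. At 6 hpa the count was 3 without replicate 3 of *activin-2* RNAi and 0 without any other 1 library. At anterior-facing wounds the 3 calls became 1 without replicate 3 or 4 of *activin-2* RNAi and 5 without replicate 2 of control RNAi. At 24 hpa the count of 7 was 4 without replicate 2 of control RNAi. At 48 hpa the count of 2 was 5 without replicate 2 of *activin-2* RNAi, 1 without replicate 1 of control RNAi and 0 without its replicate 2 or 3.

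Of the 4 members of this list with the most reads, a contig matching NPC2, dd_Smed_v6_73_0_1, had the most calls. NPC2 takes part in moving cholesterol out of the lysosome after the lipase has freed it. This contig was called in all 6 comparisons, higher at 0, 6, 18 and 48 hpa (log2 fold changes 0.64, 0.74, 0.90 at anterior-facing and 0.73 at posterior-facing wounds, and 0.59). At 24 hpa it was called lower (-0.55, edgeR adjusted p = 0.000481). Its calls at posterior-facing wounds at 18 hpa and at 24 hpa held in all alternatives. The call at 0 hpa was lost without replicate 2 of *activin-2* RNAi or replicate 1 of control RNAi (adjusted p = 0.07715 and 0.07326), and that at 48 hpa without any 1 replicate of control RNAi (0.08365 to 0.1734). At 6 hpa, leaving out any library but replicate 3 of *activin-2* RNAi ended the call (0.05162 to 0.1089). At anterior-facing wounds it ended with DESeq2 (0.05759), without any 1 replicate of *activin-2* RNAi, and without replicate 1 or 4 of control RNAi (0.05943 to 0.1065). Other contigs matching NPC2 behaved differently. At 24 hpa, dd_Smed_v6_602_0_1 was called higher (0.34, edgeR adjusted p = 0.0266). At posterior-facing wounds at 18 hpa, dd_Smed_v6_704_0_1 was called higher (0.28, edgeR adjusted p = 0.00866). APOB, the scaffold protein of lipoprotein particles (dd_Smed_v6_636_0_1), was called higher at both wound faces at 18 hpa and at 24 hpa (0.80, 0.65 and 1.55). FABP7, a fatty acid carrier (dd_Smed_v6_271_0_1), was called lower at both wound faces at 18 hpa (-0.36 and -0.38). Without replicate 3 or 4 of *activin-2* RNAi, or replicate 1 or 3 of control RNAi, the call at anterior-facing wounds was lost (0.05466 to 0.08373). The contig dd_Smed_v6_2300_0_1, matching ABCA1, which exports cholesterol from cells, had changes between -0.23 and -0.02 and was not called. Another ABCA1 match, dd_Smed_v6_10304_0_1, was called lower at 48 hpa (-0.66, edgeR adjusted p = 0.0198).

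Levels of marker contigs were compared beside the lipase, whose own cell type the annotation does not give. The summed RPM of the 470 contigs annotated Gut was between 101% and 110% of control RNAi in the *activin-2* RNAi groups, and that of the 454 contigs annotated Gut (2) was between 92.8% and 97.5%. The neoblast gene *smedwi-1* was between 96.5% and 125%. The lipase contig was at 14.2% to 24.4% of control RNAi, and the part of these cell types in its difference was not tested.

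Contigs that mark the pharynx were summed in the same way. At labelled 0 hpa the sum of 4 such contigs was 6.70, 16.7 and 21.2 RPM in *activin-2* RNAi, against 0.448, 0.556 and 41.9 RPM in control RNAi. At 6 hpa it was 7.52, 3.30 and 28.7 RPM in *activin-2* RNAi, against 1.23, 0.605 and 0.964 RPM in control RNAi. The groups overlapped at 0 hpa and did not overlap at 6 hpa. The control RNAi replicate with 41.9 RPM at 0 hpa had 101 RPM of the lipase, and the other 2 had 117 and 114 RPM. At 18 hpa the sum was 3.89 to 14.2 RPM in libraries labelled *activin-2* RNAi, against 1.10 to 1.83 RPM in control RNAi, at anterior-facing wounds. At posterior-facing wounds it was 54.2 to 177 RPM in libraries labelled *activin-2* RNAi, against 0.696 to 1.82 RPM in control RNAi. Neither wound face had an overlap between the RNAi groups. At 24 hpa, where the groups overlapped, it was 158, 107 and 18.0 RPM in *activin-2* RNAi, against 11.1, 75.5 and 53.0 RPM in control RNAi. At 48 hpa it was 3.86, 121.96 and 6.34 RPM in *activin-2* RNAi, against 1.54, 0.647 and 0.868 RPM in control RNAi. The part of pharynx tissue in the difference of the lipase was not tested.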

How the data were processed

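Reads of 40 poly(A) RNA libraries were mapped by the authors to the dd_Smed_v6 transcriptome and summed per contig, and the deposited table holds raw read counts without normalization. The submitters' processing notes name CASAVA 1.9, cutadapt 1.8, Bowtie 1.2, SAMtools 1.6 and DESeq. A deposited annotation table supplied human matches and cell types. Its columns of the authors' own comparisons (log2 fold changes and adjusted p-values) were not used. Sequences were not used here.

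RPM were computed from the counts and the library totals. The test was edgeR 4.0.16 in R 4.3.3 (TMM, filter at a minimum count of 10 and total of 15, prior count 2, quasi-likelihood test, Benjamini-Hochberg over all contigs tested, limit 0.05), on the libraries of each comparison. The fits were also run on simulated counts drawn independently for each contig and library. Such counts do not carry shared tissue make-up or doubtful labels. DESeq2 1.42.0, RLE and library size scaling, no filter, 1 fit of all 12 groups, a replicate block and leaving out each library were alternatives. Leaving out labelled times was added after seeing the data. Libraries of a group had the same count in at most 2.8% of the better covered contigs, so none was treated as a repeat deposit.

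Replicate numbers were not used to pair the samples in the main fits. The correlation of same-numbered libraries ran from -0.242 to 0.374. At anterior-facing wounds at 18 hpa, 3 of 4 *activin-2* RNAi libraries were most like the control RNAi library of the same number. At 24 hpa this held for 2 of 3, at 0, 6 and 48 hpa for 1 of 3 each, and at posterior-facing wounds at 18 hpa for 0 of 4. These values do not settle whether the numbers pair the samples. The contig, the gene lists and the tests were chosen with earlier results of these data known. Named were the contig, *activin-2*, acid lipase family members, the 4 members of each list with the most reads, the 6 contigs most alike in each of 2 ways (of which some are not reported here), and the 2 neighbours on each side in the order of the median effect. GM2A, and further contigs matching NPC2, ABCA1, cathepsin L and prosaposin, were chosen after their values were seen.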

Additional observations from a re-analysis of the deposited data

Results flagged for a closer look

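In posterior-facing wounds labelled 18 hpa, the acid lipase family contig dd_Smed_v6_7967_0_1 had 0.0980 RPM in replicate 4 of *activin-2* RNAi, which is 1 read, and 0 RPM in the other 3 libraries. It is listed because the gap to the other libraries was the whole range of the group, but 1 read against 0 is within counting error. In all, 28 groups of 4 libraries were looked at in this way. Among them were groups in which dd_Smed_v6_7967_0_1 had 0 reads in every library, so that none could be set apart. Chance alone sets a library apart in about 1 in 20 for continuous values. That rate does not hold for 1 read against 0, where the gap is always the whole range.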

How the results depend on the processing

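The fold change of the lipase between *activin-2* RNAi and control RNAi kept its direction in all alternatives run. Leaving out single libraries gave -2.19 to -1.86 at 0 hpa, -2.39 to -1.94 at 6 hpa, -3.18 to -2.64 at anterior-facing and -2.84 to -2.53 at posterior-facing wounds at 18 hpa, -2.35 to -2.03 at 24 hpa and -2.86 to -2.32 at 48 hpa. The test over time in control RNAi lost its call in 1 fit of all 12 groups (adjusted p = 0.1931), without the libraries labelled 48 hpa (0.1359) and without those labelled 24 and 48 hpa (0.146), the last 2 being added after seeing the data. Without single libraries, wound face ran from -0.37 to 0.16 in *activin-2* RNAi, and the interaction of RNAi and wound face from -0.040 to 0.49.

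With the replicate number as a block, the RNAi effects were -2.02 at 0 hpa, -2.23 at 6 hpa, -2.81 and -2.70 at anterior-facing and posterior-facing wounds at 18 hpa, -2.17 at 24 hpa and -2.54 at 48 hpa. The block made the step of 48 over 24 hpa in control RNAi a call (adjusted p = 0.03822), as it did the changes of dd_Smed_v6_4693_0_1 at 24 hpa (0.04874) and dd_Smed_v6_122_1_1 at 48 hpa (0.002039), and it ended that of NPC2 at 6 hpa (0.05601). No other call of the lipase or its family changed with it. Of *activin-2* and the recomputed list members, only comparisons called in the main fits were followed singly with the block. No other of these calls was lost. Counts of list members called moved both ways, from 3 to 5 for lipid uptake and storage at anterior-facing wounds at 18 hpa. They went from 2 to 5 for the lysosomal membrane list at 24 hpa, and from 4 to 3 for lysosomal hydrolases at 0 hpa. The further contigs matching NPC2, ABCA1, cathepsin L and prosaposin were not followed individually in the alternatives.

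Steps between labelled times that were not called turned sign in some settings. DESeq2 gave 0.021 for 48 over 0 hpa and 0.10 for 48 over 24 hpa in *activin-2* RNAi. The block gave 0.019 for 18 over 0 hpa in control RNAi, and scaling by library size only gave -0.10 for 24 over 0 hpa and -0.063 for 24 over 18 hpa. Without single libraries, *activin-2* RNAi ran from -0.28 to 0.088 for 24 over 0 hpa, from -0.48 to 0.093 for 48 over 0 hpa and from -0.38 to 0.18 for 48 over 24 hpa. Control RNAi ran from -0.13 to 0.026 for 18 over 0 hpa, from -0.042 to 0.17 for 24 over 0 hpa and from -0.0094 to 0.20 for 24 over 18 hpa. Among family contigs, dd_Smed_v6_1565_0_1 ran from -0.055 to 0.19 at 0 hpa and dd_Smed_v6_122_1_1 from -0.47 to 0.12 at posterior-facing wounds at 18 hpa. The cause of these shifts was not tested.

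Counts of list members called moved by over 1.5 times in 61 of 228 recomputed counts. Among 64 comparisons in which *activin-2* or a recomputed list member was not called, 31 of 808 alternatives gave a call. Of the 6 contigs most like the lipase, 4 to 6 stayed under another pseudocount, filter or rank correlation. With 3 or 4 libraries per group, the interval of the wound face interaction is wide.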
